A study of Mus musculus with 10 samples.

Results

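The genes described here encode the secreted ligands of the transforming growth factor beta (Tgf-beta) superfamily: 9 Bmp genes, 11 Gdf genes (Mstn, also called Gdf8, among them), 4 inhibin and activin genes, Nodal and the 2 Lefty genes, 3 Tgfb genes and Amh. These 31 genes were chosen from a written list of ligand names, and not by any measured value. All 31 were found among 21887 protein-coding genes of the mouse annotation. The data are peak lists from native chromatin immunoprecipitation and sequencing, in which histones are recovered with their DNA without crosslinking. They cover 4 histone marks: H3K4me3 (trimethylation of lysine 4, found at promoters), H3K9cr (crotonylation) and H3K27ac (acetylation), both found at active promoters and enhancers, and H3K27me3 (trimethylation of lysine 27), which Polycomb complexes set at silent genes. The cells were neural stem and progenitor cells taken from mouse forebrain at E13.5, mid-gestation, and cultured with epidermal and fibroblast growth factor, each at 20 ng/ml. One set of cultures was given 10 mM crotonate, the salt of an unsaturated fatty acid and a source of crotonyl-CoA, and the other set was given water (control), both for 24 h. For strain, sex and pooling of embryos, nothing is stated in the sources used here.

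Each mark had 1 library for crotonate and 1 for control, so no difference below has a replicate check, and no test between treatments was made. The antibody catalogue numbers matched between treatments, but the vendor labels did not: H3K4me3 and H3K27me3 carry a different vendor in crotonate than in control, and for H3K9cr and H3K27ac a vendor is given in control alone. Treatment, library and antibody label therefore cannot be told apart. Read depth is unknown. The lists held between 18001 (H3K4me3) and 59868 (H3K27ac) peaks in crotonate, and between 17322 (H3K4me3) and 52922 (H3K27ac) in control. Median fold enrichment over a list, the authors' ratio of the summit pileup to the local background, was lower in crotonate for each mark, from 91.6 against 102 for H3K4me3 to 4.03 against 4.34 for H3K27me3. All 9 markers of neural stem and progenitor cells (such as Sox2, Nes and Pax6) carried H3K4me3 and H3K27ac in both treatments. In each treatment 5 of the 9 also carried H3K27me3, among them Pax6, over 27214 bp in crotonate and 28252 bp in control. H3K4me3 was absent in both treatments from the microglial genes Cx3cr1 and Csf1r, the endothelial genes Cldn5 and Cdh5, the astrocyte gene Gfap and the skin gene Krt14. It was present in both at the microglial genes Ptprc and Aif1, the astrocyte gene Aqp4, the epithelial gene Epcam, the mesenchymal genes Col1a1 and Col1a2, and all 4 neuronal and all 3 oligodendrocyte lineage genes listed, while endothelial Pecam1 had it in crotonate alone and pericyte Pdgfrb in control alone. Presence here means that a peak touched the window of the gene, defined below, which takes in flanking sequence. At Aif1, H3K4me3 covered 330 bp of the window in crotonate and 268 bp in control, with fold enrichment 226 and 244. Whether this was the edge of a peak lying mostly outside the Aif1 window was not tested. The marks give no expression level, and the part of other cell types in the results was not tested.

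Ligands of this superfamily are made as precursors, cut by furin-like proteases and secreted as dimers. They join pairs of type I and type II receptor kinases, which phosphorylate Smad1, Smad5 and Smad9 for most Bmp and many Gdf ligands and Smad2 and Smad3 for Tgfb, activin and Nodal ligands. In the embryonic forebrain, Bmp ligands from the dorsal midline pattern the cortex and can turn progenitors toward astrocytes, and many ligand genes are silent and held under Polycomb in cells that do not use them.

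Promoters of 6 ligand genes are shown first, since they span the chromatin states met below. Each is the 250 bases before the annotated start, read 5′ to 3′ on the strand of the gene, from RefSeq, build GRCm38.p6. Capitals mark CG dinucleotides (CpG sites, counted on the strand shown). Tgfb1 and Bmp4 lay in strong H3K27me3 domains in both treatments, and Tgfb2 and Inhbb had H3K27me3 lists that differed between treatments. Inhbc had H3K27me3 in crotonate alone, and Bmp10 had neither H3K4me3 nor H3K27me3.
Tgfb1: chr7:25686752-25687001 (plus strand), 21 CpG sites.
Tgfb1: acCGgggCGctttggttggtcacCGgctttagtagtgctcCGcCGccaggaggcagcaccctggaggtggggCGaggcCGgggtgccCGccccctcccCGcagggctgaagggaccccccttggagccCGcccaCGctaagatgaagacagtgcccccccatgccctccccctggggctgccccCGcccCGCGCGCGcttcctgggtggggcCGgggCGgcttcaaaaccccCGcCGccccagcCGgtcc
Inhbb: chr1:119422249-119422498 (minus strand), 21 CpG sites.
Inhbb: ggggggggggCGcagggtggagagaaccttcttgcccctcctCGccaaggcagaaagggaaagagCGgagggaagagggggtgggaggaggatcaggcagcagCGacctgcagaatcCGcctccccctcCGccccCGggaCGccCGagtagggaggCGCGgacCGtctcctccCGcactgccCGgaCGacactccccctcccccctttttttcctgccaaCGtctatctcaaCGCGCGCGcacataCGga
Bmp4: chr14:46390670-46390919 (minus strand), 11 CpG sites.
Bmp4: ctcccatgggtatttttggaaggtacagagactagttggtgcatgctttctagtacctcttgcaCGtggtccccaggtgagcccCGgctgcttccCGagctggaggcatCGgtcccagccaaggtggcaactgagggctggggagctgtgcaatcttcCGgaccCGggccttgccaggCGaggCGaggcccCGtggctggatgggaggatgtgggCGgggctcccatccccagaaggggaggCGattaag
Tgfb2: chr1:186705990-186706239 (minus strand), 8 CpG sites.
Tgfb2: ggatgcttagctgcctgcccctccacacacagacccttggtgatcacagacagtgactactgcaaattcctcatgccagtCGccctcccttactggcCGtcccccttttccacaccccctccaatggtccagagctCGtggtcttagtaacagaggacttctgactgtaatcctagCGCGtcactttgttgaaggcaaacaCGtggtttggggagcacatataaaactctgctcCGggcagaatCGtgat
Bmp10: chr6:87428744-87428993 (plus strand), 3 CpG sites.
Bmp10: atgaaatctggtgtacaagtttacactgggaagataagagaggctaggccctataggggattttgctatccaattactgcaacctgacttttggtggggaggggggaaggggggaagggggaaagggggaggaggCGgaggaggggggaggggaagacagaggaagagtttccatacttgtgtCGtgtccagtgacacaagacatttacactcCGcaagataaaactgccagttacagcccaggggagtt
Inhbc: chr10:127370549-127370798 (minus strand), 2 CpG sites.
Inhbc: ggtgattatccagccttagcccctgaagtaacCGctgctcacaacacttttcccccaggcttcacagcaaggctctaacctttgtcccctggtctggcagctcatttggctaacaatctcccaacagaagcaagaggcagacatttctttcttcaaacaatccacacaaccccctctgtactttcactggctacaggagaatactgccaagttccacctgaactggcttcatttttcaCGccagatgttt

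A start and strand were held in the RefSeq promoter table for 20 of the 31 ligand genes. Over these 20, the 250 bases before the start held a median of 9.5 CpG sites, between 1 in Gdf15 and 35 in Gdf10. Over 17492 protein-coding genes with such an entry the median was 10, with the middle 50% between 3 and 19. Of these 20, the 13 with both H3K4me3 and H3K27me3 in control had a median of 17 CpG sites, and the 5 with neither mark (Gdf2, Bmp5, Bmp10, Mstn and Inhbc) had between 2 and 5. The TATA box letters TATAAA, searched on both strands, were found in 5 of the 20, namely Tgfb2, Inhba, Gdf2, Gdf11 and Mstn, beside 12.4% of all these promoters. In the Tgfb2 sequence above it stands near the end of the line.

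**Figure D1:**
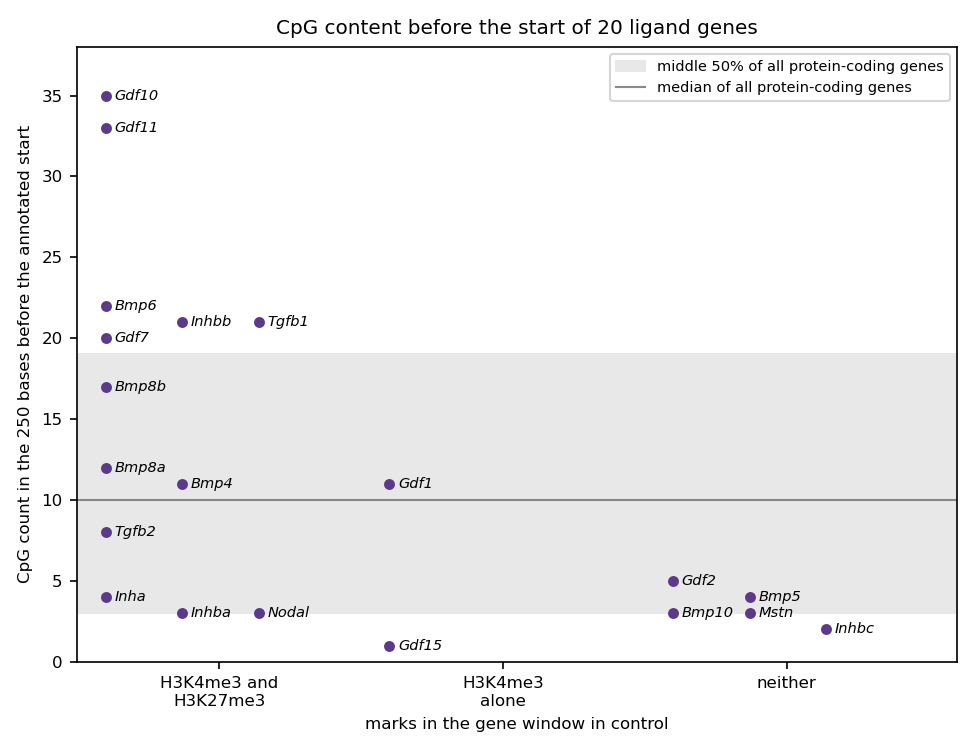
CpG sites in the 250 bases before the annotated start (vertical axis, count) of the 20 ligand genes with an entry, grouped along the horizontal axis by the marks in their windows in control; each point is 1 gene, the line is the median of all protein-coding genes (10) and the band their middle 50% (3 to 19). All 5 genes with neither mark sit at 5 CpG sites or fewer, whereas genes with both marks run from 3 to 35.

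For each gene a window was drawn from 5 kb below to 5 kb above its annotated body, and a gene was counted as carrying a mark when any peak touched that window. The median window was 20.7 kb for the ligand genes and 27.2 kb for all protein-coding genes. H3K27me3 touched 21 of 31 ligand windows (67.7%) in crotonate and 21 of 31 in control, beside 34.7% of all protein-coding genes in crotonate and 33.8% in control. H3K4me3 touched 25 windows in each treatment (80.6%), beside 68.1% of all genes in crotonate and 66.8% in control. H3K9cr touched 26 in crotonate (83.9%) and 25 in control (80.6%), beside 70.5% and 69.3% of all genes. H3K27ac touched 21 in crotonate (67.7%) and 22 in control (71.0%), about the same as the 68.5% and 67.7% of all genes. Both H3K4me3 and H3K27me3 were present at 19 ligand genes in crotonate (61.3%, exact 95% interval 42.2 to 78.2) and at 20 in control (64.5%, 45.4 to 80.8). Over all protein-coding genes 29.0% had both marks in each treatment. Intervals given here are Clopper-Pearson intervals over genes and cover counting error only.

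H3K27me3 at the ligand genes was strong where it was present. The strongest H3K27me3 peak of the window lay in the top 10% of its own list, ranked by -log10 q, at 14 of 21 marked ligand genes in crotonate and 13 of 21 in control. These are 66.7% in crotonate and 61.9% in control, where over all marked genes the shares were 37.7% in crotonate and 34.6% in control. Median fold enrichment of the strongest peak was 30.3 in crotonate and 53.4 in control over the marked ligand genes, against 6.58 in crotonate and 8.67 in control over all marked genes. For H3K4me3 the order was the other way: the ligand medians were 52.9 in crotonate and 41.6 in control, and those of all marked genes 134 in crotonate and 151 in control.

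The windows also hold other genes. A neighbouring protein-coding gene reached into 17 of the 31 windows, and 14 had none. The windows of Gdf2 and Gdf10 overlapped each other. For 7 genes every H3K4me3 peak in both lists lay within 1 kb of a neighbour: Gdf3 (by Apobec1), Inha (by Obsl1), Gdf9 (by Uqcrq), Gdf1 (by Cers1), Gdf7 (by Ldah), Bmp8b (by Oxct2b) and Amh (by Jsrp1). In Gdf3 and Inha these peaks did not touch the ligand gene itself. At Lefty1 the strong H3K4me3 peak in both lists stood by Tmem63a. Bmp8a and Bmp8b lie beside paired copies of another gene (Oxct2a and Oxct2b), so reads from near-identical sequence may be divided between them and their values are uncertain.

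**Figure D2:**
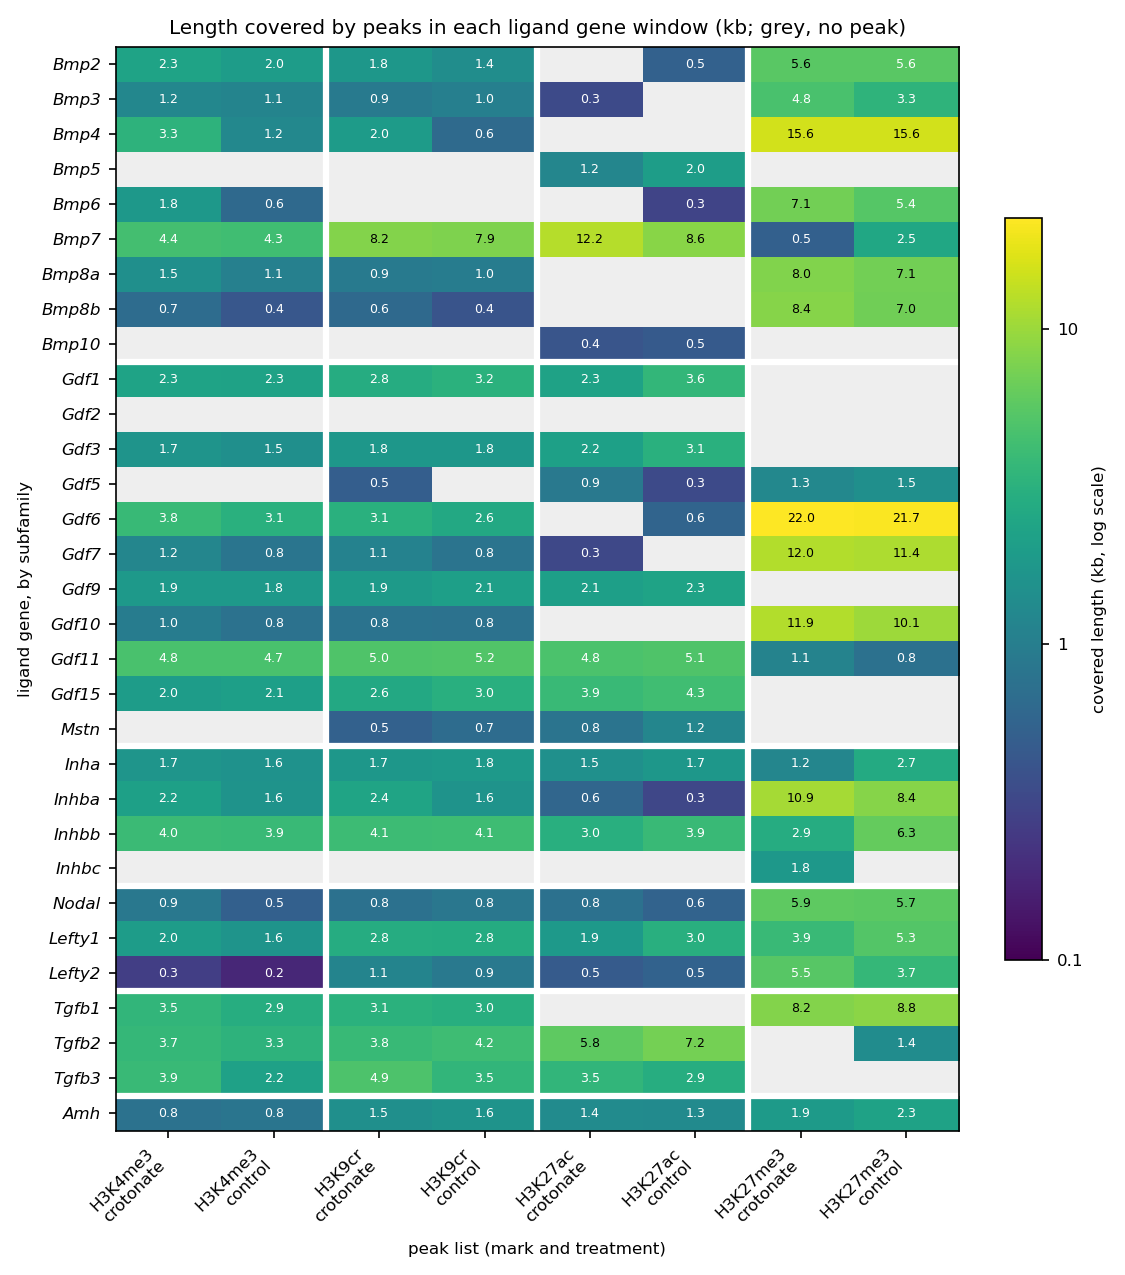
Length covered by peaks (kb, printed in each cell and coloured on a log scale) in the window of each of the 31 ligand genes (rows, by subfamily) in each of the 8 peak lists (columns, 1 library each); grey means no peak. H3K27me3 runs from 0.5 to 22.0 kb in crotonate and from 0.8 to 21.7 kb in control where present, and Gdf2 is grey in all columns.

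Most ligand genes kept the same set of marks in both treatments. For H3K4me3, 0 of 25 ligand genes lost the mark, meaning that control had a peak in the window and crotonate none, and 0 of 6 gained it. Over all protein-coding genes 0.383% lost H3K4me3 and 4.77% gained it. For H3K9cr, 0 of 25 lost the mark (0.923% over all genes) and 1 of 6, Gdf5, gained it (5.96%). For H3K27ac, 3 of 22 ligand genes lost the mark (13.6%, interval 2.91 to 34.9; 2.54% over all genes) and 2 of 9 gained it (22.2%, interval 2.81 to 60.0; 7.76%). For H3K27me3, 1 of 21 lost the mark, Tgfb2 (4.76%, interval 0.12 to 23.8; 11.4% over all genes), and 1 of 10 gained it, Inhbc (7.17%). These counts are small and their intervals wide: that of the H3K27ac losses begins just above the share over all genes, and the other intervals given include it. With 1 library per treatment, the intervals do not test a difference between treatments. The lost H3K27ac peaks stood at percentiles 4.55, 15.3 and 35.6 of the control list. In the stronger 50% of each list, 0 ligand genes lost H3K27ac.

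Covered length, the number of bases of a window under peaks, was compared between treatments in genes marked in both. H3K27me3 was at least 2-fold shorter in crotonate at 3 of 20 ligand genes, Bmp7, Inhbb and Inha (15.0%, interval 3.21 to 37.9; 9.05% over all genes), and at least 2-fold longer at 0 of 20 (7.95%). H3K4me3 was at least 2-fold longer at 2 of 25, Bmp4 and Bmp6 (1.17% over all genes), and 2-fold shorter at 0 of 25 (0.0824%). H3K9cr was 2-fold longer at 1 of 25, Bmp4 (1.08%), and 2-fold shorter at 0 of 25 (0.984%). H3K27ac was 2-fold longer at 1 of 19, Gdf5 (1.82%), and 2-fold shorter at 0 of 19 (3.32%). The median ratio of crotonate to control over the ligand genes was 1.21 for H3K4me3, 0.99 for H3K9cr, 0.89 for H3K27ac and 1.02 for H3K27me3, beside 1.03, 1.01, 0.89 and 1.00 over all genes marked in both. H3K4me3 was longer in crotonate, by any amount, at 23 of 25 ligand genes and at 69.2% of all 14563 genes marked in both.

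**Figure D3:**
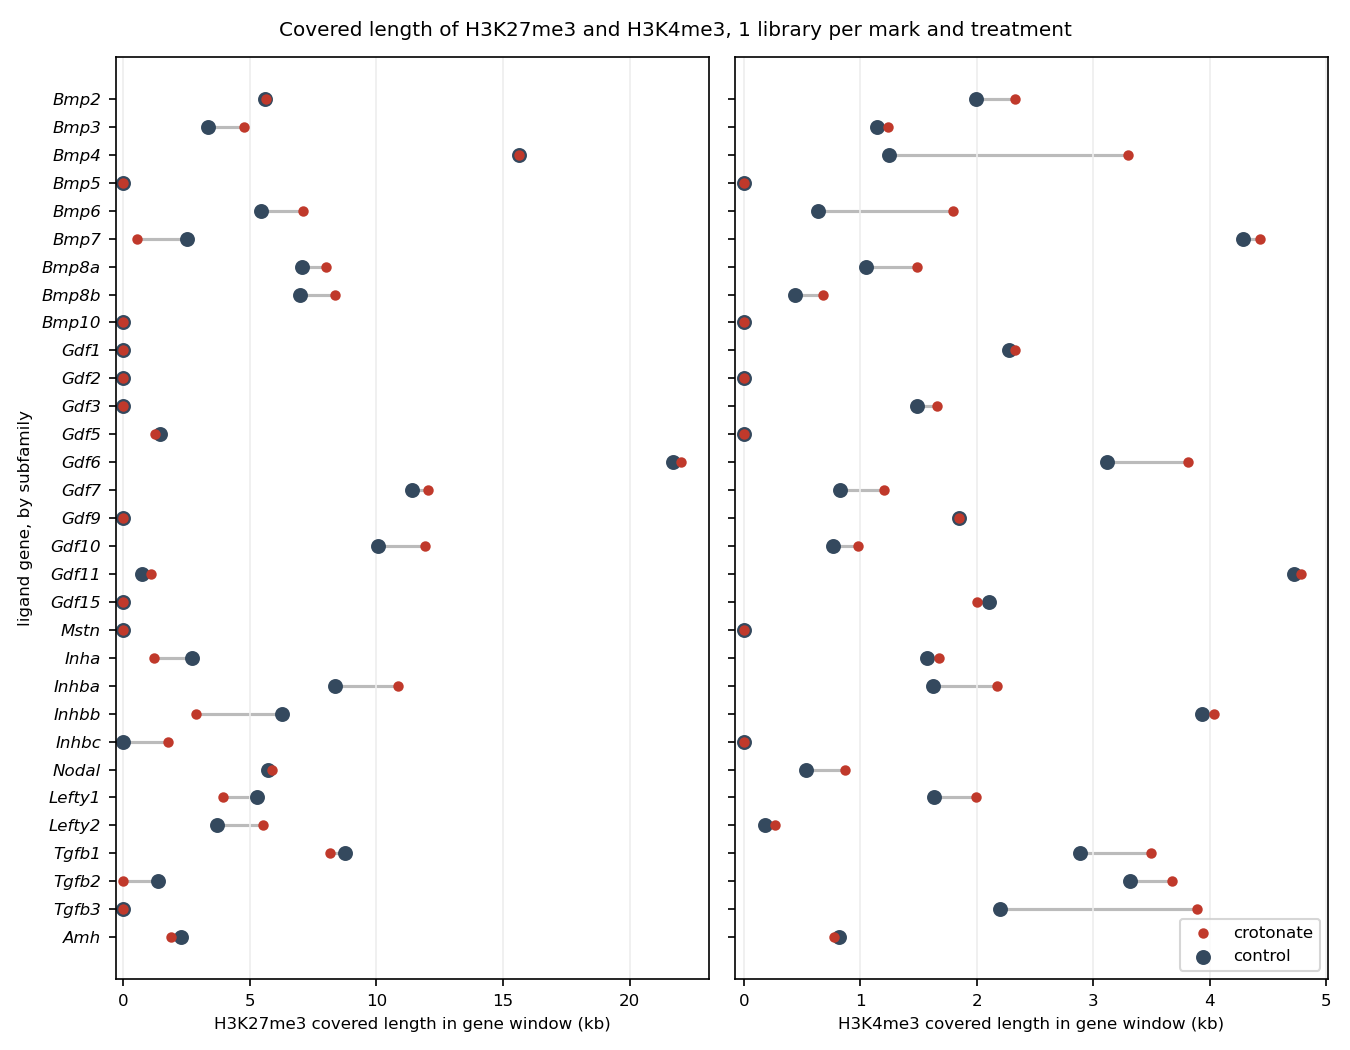
Covered length in kb of H3K27me3 (left) and H3K4me3 (right) in each ligand gene window, crotonate in red and control in dark blue, joined by a grey line for each gene; each point is 1 library. In the left panel Bmp7, Inha, Inhbb and Tgfb2 lie to the left in crotonate by 2-fold or more or at 0, and in the right panel 23 of 25 marked genes lie to the right in crotonate, as do 69.2% of all marked genes.

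The Bmp subfamily splits into genes under strong H3K27me3 (Bmp2, Bmp3, Bmp4, Bmp6, Bmp8a and Bmp8b), 1 gene with broad active marks (Bmp7) and 2 without H3K4me3 or H3K27me3 (Bmp5 and Bmp10). H3K4me3 covered more of the window in crotonate at 7 of 7 marked Bmp genes, with ratios between 1.03 at Bmp7 and 2.84 at Bmp6, where 69.2% of all marked genes were longer. Summed over the subfamily, H3K4me3 covered 15.3 kb in crotonate and 10.8 kb in control, while H3K27me3 covered 50.0 kb in crotonate and 46.5 kb in control.

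Bmp4, a Bmp ligand of the dorsal forebrain midline (chr14:46383525-46390669, GRCm38, minus strand), had both H3K4me3 and H3K9cr more than 2-fold longer in crotonate. Its H3K4me3 covered 3294 bp in crotonate and 1245 bp in control, as a single peak in each list, with fold enrichment 52.1 in crotonate and 26.8 in control. H3K9cr covered 1958 bp in crotonate in 2 peaks and 648 bp in control in 1 peak, with fold enrichment 8.11 in crotonate and 6.75 in control. Both lay within 1 H3K27me3 peak, which was 11326 bp long in crotonate and 15989 bp in control, where it ran past the window. The window as a whole had H3K27me3 over 15611 bp in crotonate, in 3 peaks, and 15617 bp in control, in 2 peaks. The strongest H3K27me3 peak of Bmp4 had fold enrichment 77.4 in crotonate and 129 in control, and no H3K27ac peak was listed in either treatment.

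Bmp6 (chr13:38345716-38500314, plus strand), a ligand close in sequence to Bmp5 and Bmp7, was the other gene with H3K4me3 2-fold longer, and had the largest such ratio of the ligand genes. H3K4me3 covered 1798 bp in crotonate and 632 bp in control, with fold enrichment 17.0 in crotonate and 9.97 in control. H3K27me3 covered 7092 bp in crotonate in 2 peaks and 5428 bp in control in 1 peak, at fold enrichment 53.4 in crotonate and 81.3 in control. Bmp6 was the 1 ligand gene with H3K4me3 and no H3K9cr in either treatment. The H3K27ac peak it lost was a 301 bp peak deep inside the gene in control, with fold enrichment 2.92, near the lower limit of its list (percentile 4.55).

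Bmp2 and Bmp3 differed between treatments in H3K27ac in opposite directions, each by 1 weak peak. Bmp2 (chr2:133552159-133562896), a close relative of Bmp4, had no H3K27ac in crotonate and a 538 bp peak in control with fold enrichment 3.41 (percentile 15.3). Its other marks were H3K4me3 over 2328 bp in crotonate and 1992 bp in control, H3K9cr over 1751 bp in crotonate and 1421 bp in control, and H3K27me3 over 5642 bp in crotonate and 5607 bp in control. Bmp3 (chr5:98854415-98884053), which opposes other Bmp ligands in bone, had a 340 bp H3K27ac peak in crotonate with fold enrichment 3.81 (percentile 30.3) and none in control. Its H3K4me3 covered 1236 bp in crotonate and 1140 bp in control, its H3K9cr 939 bp in crotonate and 1041 bp in control, and its H3K27me3 4771 bp in crotonate and 3341 bp in control. H3K4me3 fold enrichment at Bmp3 was 52.9 in crotonate and 30.9 in control.

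**Figure D4:**
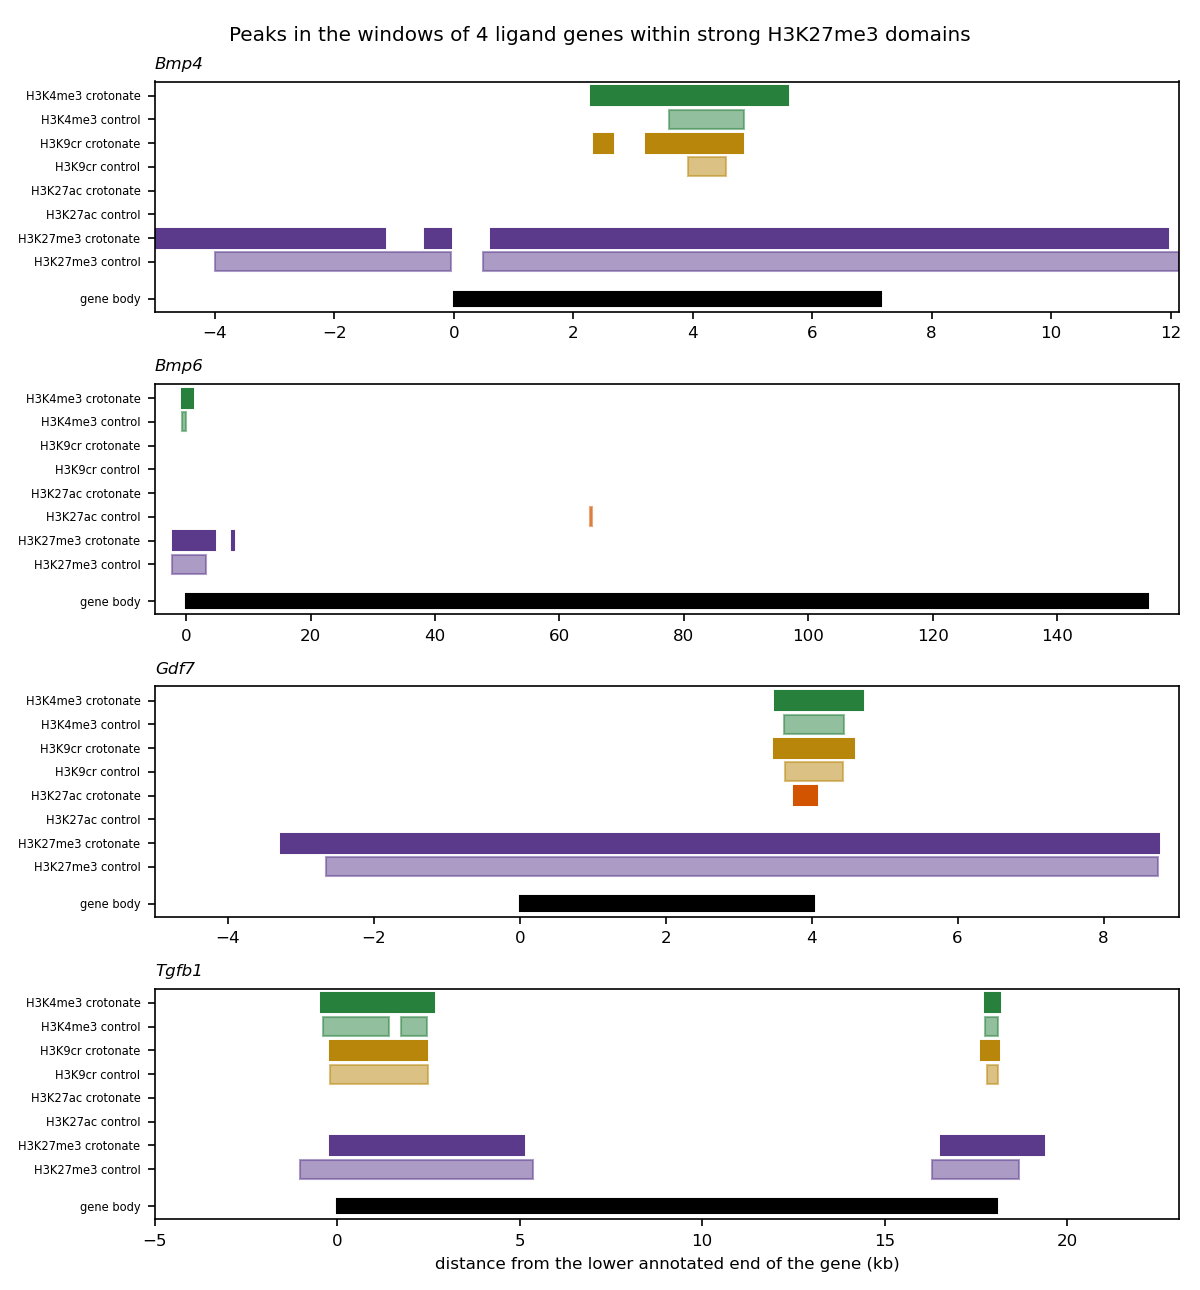
Peaks of the 4 marks (rows, crotonate above control in each pair, solid and pale) against distance in kb from the lower annotated end of Bmp4, Bmp6, Gdf7 and Tgfb1, with the gene body in black; windows end 5 kb beyond the gene. In all 4 genes the H3K27me3 domain is listed in both treatments, and the H3K4me3 peaks inside it cover more bases in crotonate.

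Bmp7 (chr2:172868012-172940321), a ligand needed for eye and kidney formation, had the largest relative shortening of H3K27me3. H3K27me3 covered 530 bp in 1 peak in crotonate and 2514 bp in 4 peaks in control, with fold enrichment of the strongest peak 2.75 in crotonate (percentile 3.77 of its list) and 6.22 in control (percentile 74.3). The control peak that overlapped the crotonate peak had 3.06. The control peak with the highest fold enrichment, chr2:172938971-172940381, had no partner in crotonate. It lay in the part of the gene nearest its upper end, under the active marks.

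H3K27ac at Bmp7 was more widely listed in crotonate, with 13 peaks over 12167 bp in crotonate and 2 peaks over 8557 bp in control. Of the 13, 10 had no partner in the control list, all 10 inside the gene body and none with a fold enrichment above 5.44. The strongest H3K27ac peak had fold enrichment 20.9 in crotonate and 25.1 in control. H3K4me3 covered 4433 bp in crotonate and 4289 bp in control, and H3K9cr 8240 bp in crotonate and 7939 bp in control.

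Bmp8a and Bmp8b, which act in the germ line, had H3K27me3 over 8026 bp and 8371 bp in crotonate and over 7057 bp and 6970 bp in control. At Bmp8a the peak at the start was 4797 bp in crotonate and 4932 bp in control. The Bmp8a peak by Oxct2a was 3229 bp in crotonate and 2125 bp in control. At Bmp8b the peak at the start was 4432 bp in crotonate and 4064 bp in control. H3K4me3 covered 1488 bp in crotonate and 1052 bp in control in the Bmp8a window. The peak at the Bmp8a start was 1205 bp in crotonate and 1052 bp in control, with fold enrichment 33.6 and 41.6. The rest in crotonate was a 283 bp peak by Oxct2a with no partner in control. In the Bmp8b window H3K4me3 covered 683 bp in crotonate and 438 bp in control, in a peak by Oxct2b. Bmp5 carried H3K27ac alone, inside the gene body, over 1207 bp in crotonate and 2035 bp in control, with 3 peaks in each list. Bmp10, a ligand of the heart, carried a single weak H3K27ac peak outside the gene, with fold enrichment 3.34 in crotonate and 2.85 in control.

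The Gdf subfamily was the most mixed. Gdf6, Gdf7 and Gdf10 had H3K27me3 over 10 kb or more of their windows, Gdf1, Gdf3, Gdf9 and Gdf15 had H3K4me3 and the 2 acylations without H3K27me3, and Gdf2 (Bmp9), a ligand of vessel endothelium, had no peak in any of the 8 lists. H3K27me3 touched 5 of 11 Gdf windows in each treatment, covering 48.4 kb in crotonate and 45.4 kb in control. H3K4me3 was longer in crotonate at 7 of 8 marked Gdf genes, with a median ratio of 1.07, beside 69.2% longer and a median of 1.03 over all genes.

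Gdf6 (chr4:9844372-9862345), a ligand of joint and eye development, had H3K27me3 over the most bases of the 31 genes, 22038 bp in 3 peaks in crotonate and 21695 bp in 1 peak in control. The longest of the 3 crotonate peaks was 19434 bp, shorter than the control peak. It lost H3K27ac: crotonate had no peak and control had 1 of 577 bp with fold enrichment 4.38 (percentile 35.6). H3K4me3 covered 3810 bp in crotonate and 3114 bp in control, and H3K9cr 3081 bp in crotonate and 2640 bp in control.

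Gdf7 (chr12:8297918-8301954, minus strand), a roof plate ligand of the dorsal neural tube, gained H3K27ac. A 320 bp peak with fold enrichment 3.53 (percentile 22.4) was listed in crotonate and none in control, within 1 kb of the neighbouring gene Ldah. H3K4me3 covered 1206 bp in crotonate and 822 bp in control, with fold enrichment 56.0 in crotonate and 25.6 in control. H3K9cr covered 1096 bp in crotonate and 797 bp in control. H3K27me3 covered 12040 bp in crotonate and 11411 bp in control, each as 1 peak.

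Gdf5 (chr2:155941023-155945367), a ligand of joint formation, was the 1 ligand gene with H3K27me3 in both treatments and no H3K4me3 in either. It gained H3K9cr as a 501 bp peak in crotonate with fold enrichment 2.62, near the lower limit of its list (percentile 2.53), while control had none. Its H3K27ac covered 899 bp in crotonate with fold enrichment 8.15 and 335 bp in control with fold enrichment 2.92. H3K27me3 covered 1257 bp in crotonate and 1468 bp in control. All of these peaks lay outside the annotated body, the H3K27ac peak beyond the lower end and the H3K9cr peak beyond the upper end.

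Gdf10, a relative of Bmp3, had H3K27me3 over 11924 bp in crotonate and 10057 bp in control, and H3K4me3 over 976 bp in crotonate and 767 bp in control. Gdf11, which patterns the tail and limits neurogenesis in sensory epithelia, had the active marks over 4779 to 5015 bp in crotonate and 4726 to 5206 bp in control, with weak H3K27me3 of 1114 bp in crotonate and 754 bp in control. Gdf15, a ligand induced by cell stress, had H3K4me3 over 1998 bp in crotonate and 2108 bp in control, with fold enrichment 19.1 in crotonate and 9.20 in control, and no H3K27me3. Mstn, which limits muscle growth, had H3K9cr and H3K27ac outside the gene in both treatments and neither methylation mark. Gdf1, Gdf3 and Gdf9, whose active peaks stood by neighbours, had H3K27ac over 2265, 2178 and 2119 bp in crotonate and over 3607, 3127 and 2303 bp in control.

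Inhibin genes gave 3 of the 5 ligand genes whose H3K27me3 was lost, gained or 2-fold shorter. Over all protein-coding genes 11.4% lost it, 7.17% gained it and 9.05% were 2-fold shorter. Of the 3, Inhbb and Inha were no longer 2-fold shorter with peaks within 3 kb merged. The inhibin genes encode the alpha subunit (Inha), which makes the antagonist inhibin, and the beta subunits (Inhba, Inhbb and Inhbc), which make activins. Total H3K27me3 over the 4 genes was 16.7 kb in crotonate and 17.4 kb in control, since Inhba and Inhbc had more in crotonate while Inhbb and Inha had less.

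At Inhbb (chr1:119415463-119422248, minus strand), H3K27me3 covered 2869 bp in 3 peaks in crotonate and 6253 bp in 1 peak in control. The strongest peak had fold enrichment 6.0 in crotonate (percentile 79.0) and 17.9 in control (percentile 89.9). The 3 crotonate peaks lay within or at the edge of the span of the control peak, so that part of the domain was listed in pieces. H3K4me3 covered 4033 bp in crotonate and 3932 bp in control, H3K9cr 4078 bp in crotonate and 4133 bp in control, and H3K27ac 3020 bp in crotonate and 3949 bp in control. The CpG-rich sequence printed above lies under the H3K4me3 peak of both lists.

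At Inha (chr1:75507077-75510366, plus strand), H3K27me3 covered 1201 bp in crotonate and 2736 bp in control, in 2 peaks each. The difference lay in the peak below the gene, by Obsl1, which was 578 bp with fold enrichment 3.54 in crotonate and 2216 bp with fold enrichment 8.40 in control. The peak that touched Inha itself was 623 bp with fold enrichment 4.36 in crotonate and 520 bp with fold enrichment 4.34 in control. H3K4me3 covered 1675 bp in crotonate and 1569 bp in control, H3K9cr 1747 bp in crotonate and 1829 bp in control, and H3K27ac 1519 bp in crotonate and 1738 bp in control. With peaks closer than 3 kb joined, neither Inhbb nor Inha was 2-fold shorter, whereas Bmp7 still was.

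Inhba, the activin A subunit, kept a broad domain, with H3K27me3 over 10867 bp in 6 peaks in crotonate and 8365 bp in 2 peaks in control. Its fold enrichment was 14.9 in crotonate and 25.7 in control. H3K4me3 covered 2172 bp in crotonate and 1620 bp in control, H3K9cr 2354 bp in crotonate and 1607 bp in control, and H3K27ac 592 bp in crotonate and 316 bp in control. Inhbc (chr10:127356322-127370548, minus strand), a subunit made mainly in liver, gained H3K27me3 as 4 peaks over 1785 bp in crotonate, of fold enrichment up to 5.72, with none in control. All 4 lay over 10 kb from its start, toward the far end of the gene or beyond it, and no other mark was listed there in either treatment.

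**Figure D5:**
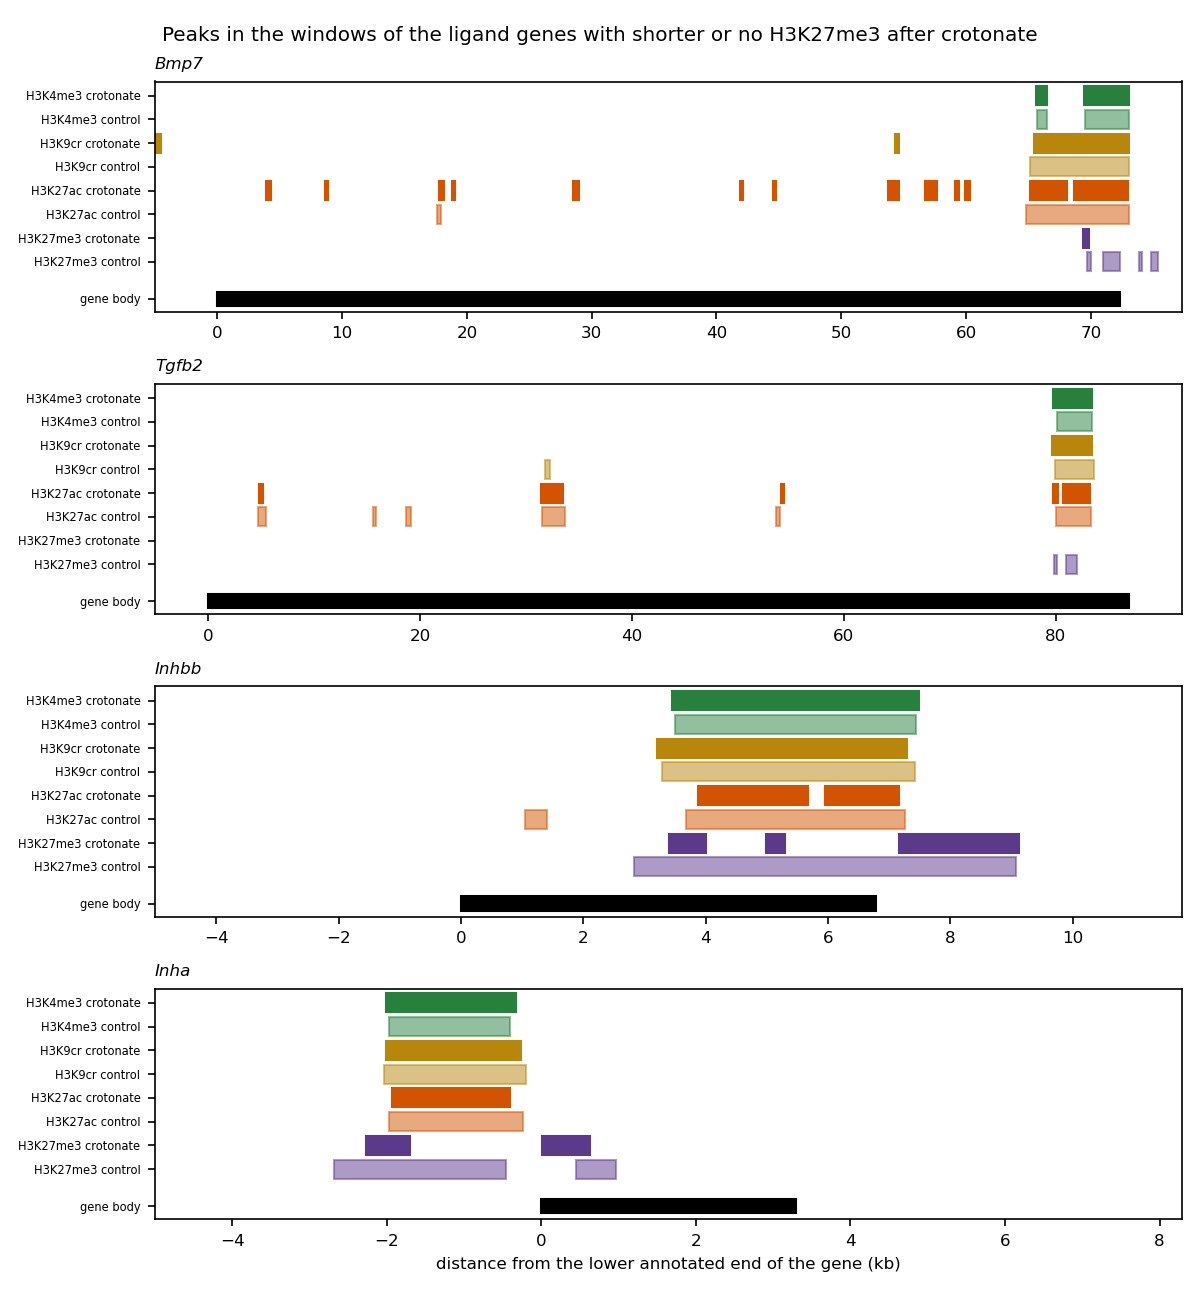
Peaks of the 4 marks (rows, crotonate above control in each pair, solid and pale) against distance in kb from the lower annotated end of Bmp7, Tgfb2, Inhbb and Inha, with the gene body in black; windows end 5 kb beyond the gene. H3K27me3 covers 530, 0, 2869 and 1201 bp in crotonate against 2514, 1385, 6253 and 2736 bp in control, and lies at or near the H3K4me3 peak in each gene.

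Nodal, the ligand of mesendoderm induction and of left-right asymmetry, and its secreted antagonists Lefty1 and Lefty2 carried both methylation marks in both treatments. At Nodal, H3K4me3 covered 864 bp in crotonate and 531 bp in control, with fold enrichment 15.2 in crotonate and 6.77 in control, while H3K27me3 covered 5872 bp in crotonate and 5702 bp in control. The H3K27ac peaks of its window stood by Eif4ebp2. At Lefty1 a weak 283 bp H3K4me3 peak (fold enrichment 5.42) lay inside the gene in crotonate alone, and the window was counted as marked in both treatments because of the peak by Tmem63a. H3K27me3 covered 3942 bp at Lefty1 in crotonate and 5271 bp in control. At Lefty2 it covered 5523 bp in crotonate and 3701 bp in control, and the H3K4me3 in its window was the edge, 271 bp in crotonate and 183 bp in control, of a strong peak beyond the upper end.

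The 3 Tgfb genes encode the founding ligands, which are held latent outside the cell and released near their targets. Tgfb2 (chr1:186622787-186709697, minus strand) was the 1 ligand gene that lost H3K27me3. Control had 2 peaks, chr1:186702623-186702942 and chr1:186703735-186704799, covering 1385 bp, and crotonate had none. The stronger had a pileup, the height of stacked fragments at its summit, of 21 and fold enrichment 5.96, at percentile 70.3 of its list, so it was a peak of middle strength. Both lay in the first few kb after the start given above, and both overlapped the H3K4me3, H3K9cr and H3K27ac peaks of control.

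Those active marks at Tgfb2 stayed in both lists. H3K4me3 covered 3677 bp in crotonate and 3316 bp in control, with fold enrichment 74.6 in crotonate and 93.5 in control. H3K9cr covered 3832 bp in crotonate and 4213 bp in control, with fold enrichment 33.0 in crotonate and 74.5 in control. H3K27ac covered 5822 bp in crotonate and 7238 bp in control, with fold enrichment near the start 6.58 in crotonate and 16.5 in control. An H3K27ac peak about 50 kb inside the gene had 4.98 in crotonate and 18.5 in control. The lengths of H3K9cr and H3K27ac were thus shorter in crotonate at the gene whose H3K27me3 was missing from the crotonate list. Over all genes marked in both treatments, H3K9cr was shorter in crotonate at 47.6% and H3K27ac at 70.3%.

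Tgfb1, by contrast, carried 2 H3K27me3 peaks in both treatments and no H3K27ac in either. H3K27me3 covered 8158 bp in crotonate and 8771 bp in control, with fold enrichment of the strongest peak 40.9 in crotonate and 114 in control. H3K4me3 covered 3498 bp in crotonate and 2886 bp in control, and H3K9cr 3142 bp in crotonate and 2986 bp in control. Tgfb3 had no H3K27me3 in either treatment, and its H3K4me3 covered 3893 bp in crotonate and 2198 bp in control, partly by Ift43. Amh, which makes the Müllerian duct regress, had H3K4me3 over 777 bp in crotonate and 819 bp in control, and H3K27me3 over 1899 bp in crotonate and 2273 bp in control, both by Jsrp1.

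H3K27me3 was lost or 2-fold shorter in 4 of 21 ligand genes, and these 4 (Tgfb2, Bmp7, Inhbb and Inha) all carried H3K27ac in control. With peaks within 3 kb merged, Inhbb and Inha are no longer 2-fold shorter, which leaves Tgfb2 and Bmp7 of these 4. Among ligand genes with H3K27me3, the share was 4 of 14 where H3K27ac was present in control (28.6%, interval 8.39 to 58.1) and 0 of 7 where it was absent (Bmp3, Bmp4, Bmp8a, Bmp8b, Gdf7, Gdf10 and Tgfb1), an interval of 0 to 41.0%. The same split over all protein-coding genes gave 23.3% of 5910 genes with H3K27ac and 3.71% of 1483 without. Strength of H3K27me3 moved with this split: the median percentile of the strongest control peak was 87.5 in the 14 and 97.4 in the 7. By strength alone, 0 of 13 ligand genes with the control peak in the top 10% lost or shortened H3K27me3 (interval 0 to 24.7%), beside 1.41% of 2558 genes. Below the top 10% 4 of 8 did (50.0%, interval 15.7 to 84.3), beside 28.9% of 4835 genes. Inhbb at percentile 89.9 lies just below that line and Inhba at 92.6 just above it, and the line was set after the values were seen. The parts of strength and of H3K27ac in these counts were not tested.

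H3K4me3 length was also set beside the strength of H3K27me3. In the 13 ligand genes with both marks and H3K27me3 in the top 10% in control, H3K4me3 was longer in crotonate at 13 of 13, with a median ratio of 1.41 between 1.08 and 2.84. Over 2201 protein-coding genes in that state with H3K4me3 in both lists, 84.6% were longer and the median ratio was 1.13. Some of the 13 ligand ratios are not of the ligand gene alone. The median is the ratio of Bmp8a, which includes a 283 bp crotonate peak by Oxct2a. The ratio of Bmp8b (1.56) is of a peak by Oxct2b, and that of Lefty2 (1.48) of the edge of a peak beyond its upper end. The ratio of Gdf7 (1.47) is of a peak that touches Gdf7 and also lies by Ldah. In the 7 ligand genes with both marks and weaker H3K27me3, H3K4me3 was longer at 6, with a median ratio of 1.03. In the 5 with H3K4me3 and no H3K27me3 it was longer at 4, with a median of 1.02 and a highest ratio of 1.77, at Tgfb3. The difference between these states was not tested. H3K27me3 in the same 13 genes had a median ratio of 1.14 and was longer at 11, beside a median of 1.00 and 49.98% longer over 2195 genes in that state. The ligand median is again the ratio of Bmp8a, where the H3K27me3 peak by Oxct2a was longer in crotonate and the peak at the start shorter. Because the H3K4me3 antibody vendor label differs between treatments, crotonate and antibody cannot be told apart for these lengths.

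Individual peaks were compared as well, each being shared when at least 1 bp overlapped a peak of the other treatment. In the ligand windows, 3 of 36 H3K4me3 peaks of crotonate and 0 of 34 of control had no partner, beside 6.88% and 2.81% of the whole crotonate and control lists. For H3K9cr these were 6 of 41 in crotonate and 3 of 39 in control (14.6% and 7.69%), beside 15.3% and 15.1% of the whole lists. For H3K27ac they were 16 of 49 in crotonate and 9 of 36 in control (32.7% and 25%), beside 30.1% and 25.3%. For H3K27me3, 18 of 53 crotonate peaks and 7 of 39 control peaks had none (34.0% and 17.9%), beside 45.2% and 26.4%. The ligand shares were thus near or below those of the whole lists. Crotonate had more peaks in these windows for each mark, as it had over the genome.

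The rest of the pathway was read from a written list of 63 receptors, Smads, inhibitors, latency and release proteins and target genes. H3K27me3 was lost at 5 of 46 marked genes (10.9%), gained at 0 of 17, and among the 41 marked in both it was 2-fold shorter at 7 and 2-fold longer at 0, with a median ratio of 0.85. Over all genes 11.4% lost it, 7.17% gained it, 9.05% were 2-fold shorter and 7.95% 2-fold longer, with a median of 1.00, so the share of losses is close to the background. Lists with losses were receptors (Bmpr1b and Tgfbr2), Smads (Smad5), inhibitors (Nbl1) and targets (Id3). The 7 with shorter H3K27me3 were Furin, Ccn2, Smad1, Rgma, Bambi, Id1 and Id2. Id genes are targets of Bmp signalling that hold progenitors undifferentiated. Id1 had 616 bp in crotonate and 1791 bp in control, with fold enrichment 4.09 in crotonate and 4.15 in control. Id2 had 1639 bp in crotonate and 3885 bp in control, with fold enrichment 4.63 in crotonate and 14.4 in control. Id4 had 2871 bp in crotonate and 3917 bp in control, less than a 2-fold difference. Id3 had no H3K27me3 in crotonate and 3058 bp in control, with fold enrichment 6.78 there.

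Of the other H3K27me3 losses, those at Smad5, Bmpr1b and Tgfbr2 were marginal in place or strength. At Nbl1, a secreted Bmp antagonist, control had 2 H3K27me3 peaks covering 1363 bp of the window. The stronger had fold enrichment 26.6, but just 17 bp of its 4215 bp lay in the window. Most of the lost length was thus under the other peak. The peak at Smad5, a Bmp-activated Smad, had 191 bp of 2566 bp in the window. The lost peaks of the receptors Bmpr1b and Tgfbr2 had fold enrichment 3.25 and 3.79 in control. H3K4me3 was lost at 0 of 56 pathway genes, beside 0.383% of all genes, and Ltbp2, of the latent Tgfb binding protein family, gained it (fold enrichment 18.6 in crotonate). H3K9cr was lost at 1 of 60 (Fstl3), beside 0.923% of all genes, and gained at 1 of 3 (Ltbp2), beside 5.96%. H3K27ac was lost at 2 of 53 (Smad9 and Acvrl1), beside 2.54%, and gained at 1 of 10 (Cer1), beside 7.76%.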

How the data were processed

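Peak lists of 4 histone marks, 1 library per mark and treatment, were analysed; 2 inputs were not used here. Per the submitters' processing notes, Bowtie2 2.4.1, MACS2 2.2.7.1 and GRCm38 were used. Peak-calling settings are not stated there. The deposited pileup is a coverage signal at the summit of a peak. Fold enrichment, as deposited, is a ratio of pileup to background. Each peak also has a -log10 p-value and a -log10 q-value from the authors. All were used to describe or rank peaks within a list.

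Gene bodies came from RefSeq (GRCm38.p6), which gave no exons, so positions are stated as inside or outside the gene. Windows reached 5 kb beyond both ends. Overlap of 1 bp counted. Covered length sums the parts of peaks inside the window, since peaks of a list do not overlap each other. Shares carry exact 95% intervals. Counting was tested on simulated data with genes spaced apart and at most 1 peak per gene and list. Neighbouring genes, several peaks in a window and peaks cut by a window edge were not covered there. Python 3.11.15 with pandas 2.3.3 and scipy 1.17.1 was used. All ligand genes are named. They were given in every list where a mark was lost or gained or H3K27me3 differed 2-fold. Of other pathway genes, up to 3 per mark and direction, ranked by -log10 q, are named. Bmpr1b, Tgfbr2, Id4 and the pathway genes with 2-fold shorter H3K27me3 were named after their values were seen. Members, lists and alternatives were chosen with earlier results of these data known. Read depth is unknown, and its effect on presence calls was not tested. A result for another pathway gene is not reported here.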

Additional observations from a re-analysis of the deposited data

How the results depend on the processing

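No paired analysis was possible because each mark had 1 library per treatment and no test was made. Requiring an unshared peak for a loss or gain changed none of the counts. A loss or gain already means that the other treatment has no peak in the window. This alternative could therefore act only on peaks that cross a window edge, and it is a weak check. With the gene body alone, H3K4me3 was gained at 2 genes (Bmp6 and Lefty1) in place of 0, H3K9cr was gained at 0 in place of 1, and the difference in genes with both methylation marks, crotonate minus control, was 1 (15 against 14) in place of -1 (19 against 20). Within 1 kb of the start, known for 20 genes, H3K9cr gains numbered 0, H3K27ac losses 0, H3K27ac gains 1 (Gdf7), H3K27me3 losses 0 and the difference 1 (10 against 9), with fewer genes and smaller windows by construction. There the H3K27me3 gain was at Gdf11, not Inhbc. In the stronger 50% of each list H3K4me3 was gained at 1 gene (Tgfb2), H3K9cr at 3 (Bmp3, Gdf7 and Tgfb1), H3K27ac lost at 0, and H3K27me3 lost at 2 (Bmp7 and Tgfb2). H3K27ac was then gained at Gdf5 and Mstn, not Bmp3 and Gdf7. With equal numbers of peaks per mark, H3K27me3 was lost at 2 (Bmp7 and Tgfb2) and the difference was -2 (18 against 20). Leaving out peaks of neighbouring genes, an alternative chosen after seeing the data, gave 1 H3K4me3 gain (Lefty1), a difference of 0 (17 against 17) and 4 H3K27ac losses (Lefty1 added). With peaks within 3 kb merged, lengths differing 2-fold numbered 3 in place of 1 for H3K9cr (Bmp2, Bmp4 and Lefty2) and 2 for H3K27ac (Bmp7 and Gdf5, with 1 as reported), and for H3K27me3 they were Bmp7 and Lefty2 in place of Bmp7, Inha and Inhbb. Requiring 50% overlap of both peaks raised unshared peaks to 10 (H3K4me3), 14 (H3K9cr), 42 (H3K27ac) and 48 (H3K27me3), where the report has 3, 9, 25 and 25 over both treatments. Where construction does not show it, the cause was not tested.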
